A study of Mus musculus with 2 samples.

Results

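The potassium channels, sodium channels and sodium pump of sinoatrial node cells were described in control and Isl1 mutant embryos. The levels of 36 genes among the 12557 genes of the deposited table were used. The 36 were chosen by symbol alone: potassium channel subunits named Kcn (other than Kcnj3 and Kcnj5), sodium channel subunits named Scn, the sodium pump's subunits, their FXYD regulators, the sodium channel partners Fgf12 and Fgf13, and the sulfonylurea receptors Abcc8 and Abcc9. The naming rule uses no measured value, but a gene had to be in the table to be among the 36. Of the 36 genes, 33 are given one by one, and counts over the whole set hold all 36.

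The sinoatrial node is the heart's pacemaker, and Isl1 is a LIM-homeodomain transcription factor made in it. Both groups were ICR mouse embryos with Hcn4-CreERT2, a recombinase that tamoxifen activates in cells using the pacemaker channel gene Hcn4, and the Rosa-tdTomato reporter. The mutant embryos carried Isl1f/f and the controls Isl1+/+. Both received tamoxifen at E10.5 and were harvested 36 hours later, at E12 to E12.5 by the protocol (E for embryonic day). Nodes of each genotype were pooled, endothelial cells were depleted with CD31 beads, and tdTomato-positive cells were sorted. There was 1 library per genotype, so each difference below is a description of 2 libraries, with no replicate error and no test. The red fluorescence shows recombination at the reporter, not at Isl1. The labels used here do not say how many embryos made up a pool.

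Levels are in RPKM, read numbers scaled to exon length and library total, so they can be set side by side between genes. Library totals were 110117186 reads for control and 119018888 for mutant. Isl1 itself was at 7.65 RPKM (control) and 1.52 RPKM (mutant). All 6 node markers, Isl1 among them, were lower in the mutant library, with their summed level going from 51.2 to 23.4 RPKM. Isl1 is the floxed gene, so its part in that count and sum is no separate observation. The summed level of 8 heart muscle markers went from 12233 to 17921 RPKM. Markers of other cells were lower in the mutant library in 7 of 7 erythroid genes (summed 289 to 47.1 RPKM), 7 of 7 macrophage and white cell genes (42.2 to 7.70 RPKM), 8 of 8 fibroblast and mesenchyme genes (433 to 204 RPKM) and 5 of 5 endothelial genes (20.3 to 9.49 RPKM). None of these lists' genes in the table stood at the table's fill value, which was taken to replace 0 reads. Of all 12342 genes not at that value, 8284 were lower in the mutant library. Fewer cells of a type and less RNA per cell cannot be told apart in such pooled material. The part of these cells in the differences below was not tested.

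A heart muscle cell is held at rest by potassium leaving through inward rectifier and two-pore channels, is depolarised by voltage-gated sodium channels where they are present, and is repolarised by voltage-gated potassium channels. Accessory subunits set how fast those channels open and close. The sodium pump, an ATPase with a catalytic alpha and a glycosylated beta subunit, keeps up both gradients and carries outward current of its own. In node cells, low resting potassium conductance leaves room for the slow depolarisation that starts each beat.

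Potassium channel genes differed in both directions between the libraries. All 5 genes of inward rectifiers and ATP-sensitive potassium (KATP) channels among the 36 were higher in the mutant library, led by Kcnj6 at 3.65-fold. Of the inward rectifier genes left out of the 36, Kcnj3 was 1.93-fold lower and Kcnj5 nearly level, at 27.8 and 29.8 RPKM. Kcne1 and Kcnf1 were 4.40-fold and 3.39-fold higher, and Kcnip4 was 10.8-fold lower. Kcne1, Kcnf1 and the KATP gene Kcnj8 reached 1 RPKM, the minimum for being in the table, only in the mutant library, and Kcnip4 only in the control library. Atp1b1, a beta subunit gene of the pump, was 1.64-fold lower, and the pump regulator Fxyd1 was 1.42-fold higher. Fgf12, a sodium channel partner, was 2.52-fold higher, while its relative Fgf13 was nearly level.

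**Figure D1:**
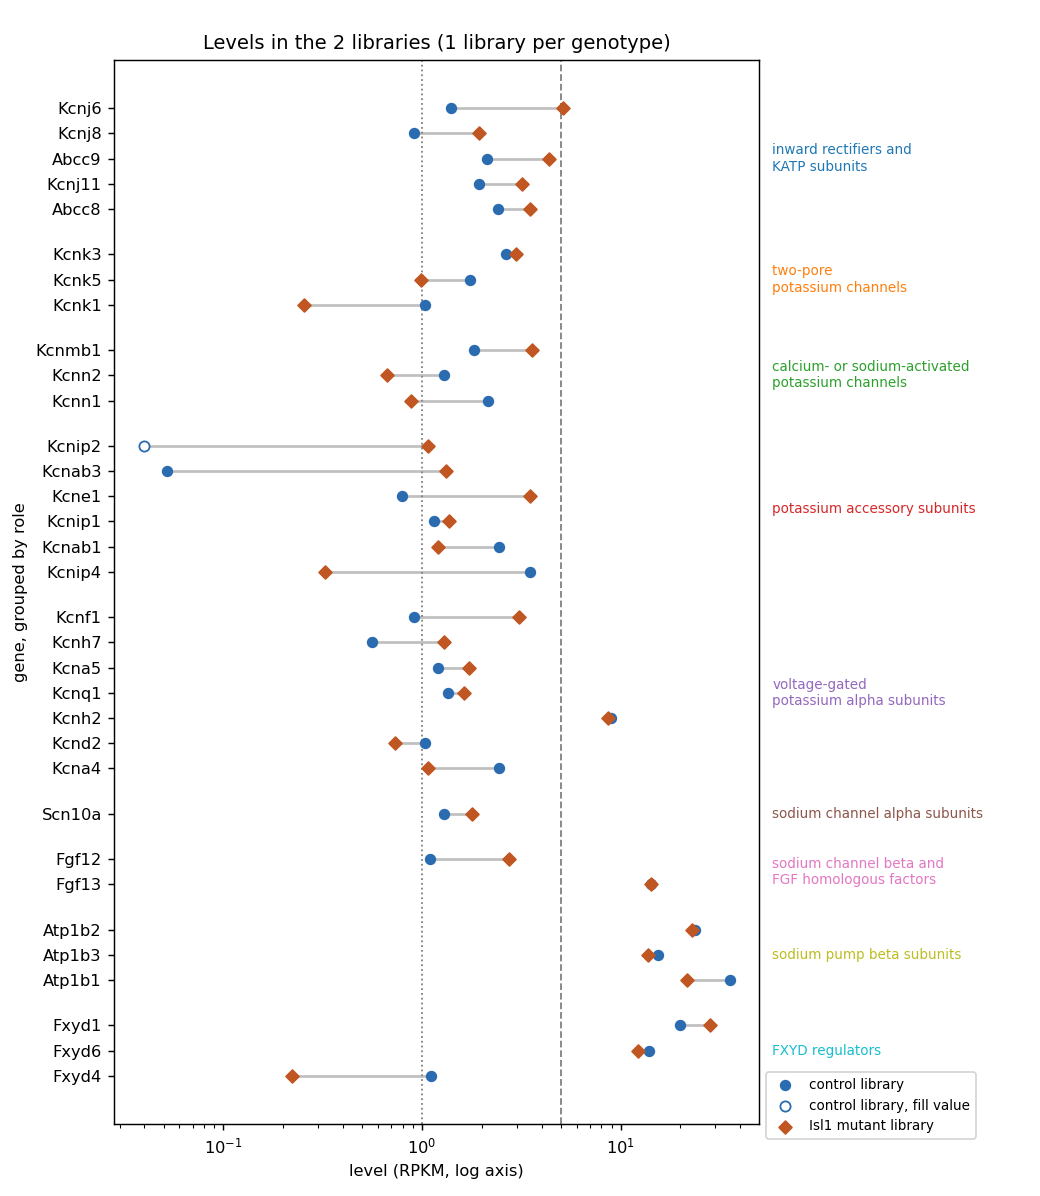
Level of each of 33 genes in the control library (circles) and the Isl1 mutant library (diamonds), in RPKM on a log axis, grouped by role; the dotted and dashed lines stand at 1 and 5 RPKM, and the open circle is a fill value. Most potassium channel genes lie between 1 and 5 RPKM in at least 1 library, and the Atp1b genes lie above 5 RPKM in both.

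The mouse annotation used here, GENCODE release M21, holds 123 gene symbols that fit the naming rule. Of these, 36 were in the table and 87 were not analysed here, among them 9 of 29 genes of a core list (Kcnj2, Kcnd3, Kcnma1, Scn1a, Scn3a and Scn4b were among these). Each gene in the table reached 1 RPKM in at least 1 library. That minimum binds 13 of the 36 genes. Of these, 6 reached it only in the mutant library (Kcnab3, Kcnip2, Kcnj8, Kcne1, Kcnf1 and Kcnh7) and 7 only in the control library (Kcnn1, Fxyd4, Kcnk5, Kcnip4, Kcnk1, Kcnn2 and Kcnd2). Such genes had to differ in order to be listed with 1 value on each side of the minimum. Over all 12446 distinct symbols, 3.75% reached 1 RPKM only in the mutant library and 12.9% only in the control library.

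Sizes were counted by 3 rules. By the strict rule, a gene had to reach 5 RPKM in at least 1 library and differ by 2-fold on the log2(RPKM + 1) scale, which understates the change of low genes. Of 10 members at that level, 1 was higher (Kcnj6) and 0 were lower, while 1.01% of all 6343 genes at that level were higher and 2.68% lower. Kcnj6 reached 5 RPKM only in the mutant library, the one in which it is high, so its count is no support for a difference. By the wider rule, a ratio of RPKM of at least 1.5-fold at any level, 10 of 35 members were higher and 11 lower, beside 7.16% and 26.9% of 12342 genes. Of the higher, Kcnab3, Kcnj8, Kcne1, Kcnf1 and Kcnh7 reached 1 RPKM only in the mutant library. Of the lower, Kcnn1, Fxyd4, Kcnk5, Kcnip4, Kcnk1 and Kcnn2 reached it only in the control library. The counting of these genes is no support for a difference. The third rule, chosen after seeing the data, applied the same ratio to genes whose mean over both libraries was at least 1 RPKM, a set from which the table's minimum removes nothing. There 8 of 29 members (27.6%) were higher and 8 (27.6%) lower, beside 6.17% and 23.5% of 11398 genes. The share of members lower thus lay near the background, and the share higher lay above it. The higher members there include Kcnj8, Kcne1 and Kcnf1, which were under 1 RPKM in the control library. The lower include Kcnn1, Kcnk5 and Kcnip4, which were under 1 RPKM in the mutant library. The counting of these genes is no support either. The median log2 ratio was 0.17 over these 29 members and -0.19 over the 11398 genes. Above the floor of 5 RPKM that the strict rule sets, the median was -0.10 over 10 members and -0.11 over 6343 genes, so there the members lay at the background.

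**Figure D2:**
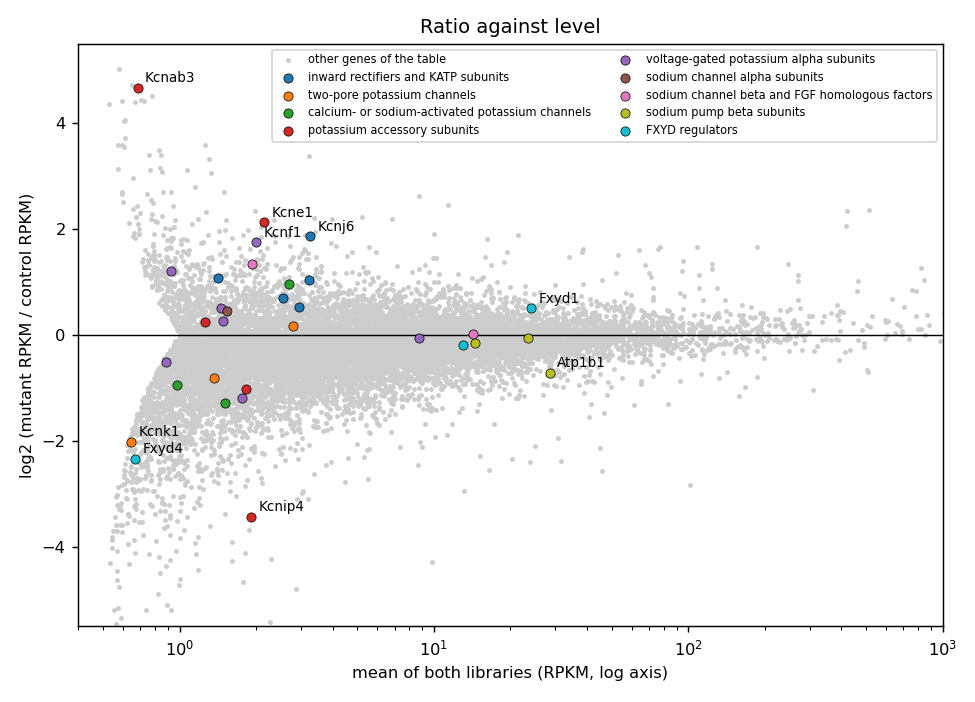
Log2 ratio of mutant to control RPKM against the mean level of both libraries (RPKM, log axis) for genes of the table not at a fill value (grey, cropped at the axis limits) and for 32 members coloured by role. The potassium channel genes spread on both sides of 0 below 5 RPKM, and the pump gene Atp1b1 lies below 0 at higher level; the curved edge at the left is the table's minimum of 1 RPKM.

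Ratios moved with level over the whole table. In 10 bins of equal gene number by geometric mean level, the median log2 ratio went from -1.29 in the lowest bin to 0.02 in the highest. The lowest bin, which holds Kcnip2, Kcnab3, Kcnh7, Kcnd2, Kcnn2, Kcnk1 and Fxyd4, is shaped by the table's minimum. Some ratios are given below also relative to the median of their bin.

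The KATP channel joins a pore subunit, Kir6.1 (Kcnj8) or Kir6.2 (Kcnj11), to a sulfonylurea receptor, SUR2 (Abcc9) or SUR1 (Abcc8), and opens when cellular ATP falls. All 4 genes were higher in the mutant library, and Kcnj8 is in the table only through that library. Kcnj8 was at 0.914 RPKM (control) and 1.93 RPKM (mutant), 2.11-fold higher (95% counting interval 1.80 to 2.49, from at least 220 and 502 reads). Abcc9 went from 2.12 to 4.36 RPKM, 2.06-fold higher (1.94 to 2.18, from at least 1730 and 3847 reads). Kcnj11 went from 1.94 to 3.18 RPKM, 1.63-fold higher (1.42 to 1.88). Abcc8 went from 2.41 to 3.50 RPKM, 1.45-fold higher (1.38 to 1.52), which is under the 1.5-fold rule. Each interval is an exact conditional binomial (Clopper-Pearson) interval on recovered reads and covers the error of counting alone. The libraries were amplified from little RNA, so that reads are not independent molecules.

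The KATP genes lie in pairs of 1 pore and 1 receptor gene, and the members of a pair were higher together. In mm9, Kcnj8 (chromosome 6, 142513359 to 142519876) lies 16.5 kb from Abcc9 (142536382 to 142650794). Kcnj11 (chromosome 7, 53352533 to 53355607) lies 4.29 kb from Abcc8 (53359893 to 53435403). All 4 are on the minus strand. The summed level of both pore genes went from 2.86 to 5.11 RPKM and that of both receptor genes from 4.53 to 7.85 RPKM. Kcnj11 held 68.0% (control) and 62.2% (mutant) of the pore sum, and Abcc8 held 53.2% and 44.5% of the receptor sum, so the order of the receptor genes turned between the libraries.

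Kcnj8 and Abcc9 are neighbours that differed by nearly the same fold, and their promoters are shown beside those of Kcnip2 and Atp1b1. Kcnip2 carried the fill value in the control library, so it has no fold, and Atp1b1 was lower in the mutant library. Each sequence is the 250 bases before the annotated start, 5′ to 3′ on the gene's strand, from RefSeq (GRCm38.p6). Capitals mark TAAT or ATTA, the core that LIM-homeodomain proteins bind, and GGGCGG or CCGCCC, the GC box.
Kcnj8 (chr6:142571615-142571864, minus strand): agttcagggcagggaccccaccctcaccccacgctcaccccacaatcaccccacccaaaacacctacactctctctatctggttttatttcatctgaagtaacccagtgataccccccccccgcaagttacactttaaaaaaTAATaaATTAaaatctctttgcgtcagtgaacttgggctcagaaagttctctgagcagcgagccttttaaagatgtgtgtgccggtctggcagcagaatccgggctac
Abcc9 (chr6:142702275-142702524, minus strand): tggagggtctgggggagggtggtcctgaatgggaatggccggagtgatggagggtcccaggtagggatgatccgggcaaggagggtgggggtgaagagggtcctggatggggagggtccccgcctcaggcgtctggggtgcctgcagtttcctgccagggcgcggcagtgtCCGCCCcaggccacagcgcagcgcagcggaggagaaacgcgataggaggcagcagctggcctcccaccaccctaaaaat
Kcnip2 (chr19:45816064-45816313, minus strand): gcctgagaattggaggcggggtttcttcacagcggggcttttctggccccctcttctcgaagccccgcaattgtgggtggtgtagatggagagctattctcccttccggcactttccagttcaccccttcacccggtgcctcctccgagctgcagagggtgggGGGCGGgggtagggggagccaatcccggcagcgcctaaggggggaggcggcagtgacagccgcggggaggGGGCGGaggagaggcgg
Atp1b1 (chr1:164458356-164458605, minus strand): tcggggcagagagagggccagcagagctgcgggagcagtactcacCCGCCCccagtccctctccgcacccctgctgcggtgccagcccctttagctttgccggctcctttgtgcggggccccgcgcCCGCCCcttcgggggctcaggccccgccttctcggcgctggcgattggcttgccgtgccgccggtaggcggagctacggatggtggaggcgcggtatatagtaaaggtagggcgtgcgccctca

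The neighbours' promoters were unlike in composition. That of Kcnj8 had 49.2% G and C, 2 TAAT matches and 0 GC boxes, and that of Abcc9 had 66.8%, 0 TAAT matches and 1 GC box. Those of Kcnip2 and Atp1b1 had 2 GC boxes each and no TAAT match. Searched on both strands in windows of equal length, TAAT was present in 54.9% of 32851 promoters, GGGCGG in 32.7% and TATAAA in 12.4%. Promoter entries were matched for 25 members (39 entries), of which 19 entries held TAAT, 19 held GGGCGG and 0 held TATAAA. A match is a description of letters and not a binding site.

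Kcnj6 encodes GIRK2, an inward rectifier opened by G protein beta-gamma subunits. It stood at 1.40 RPKM (control) and 5.13 RPKM (mutant), 3.65-fold higher (3.24 to 4.12, from at least 346 and 1366 reads). Its log2 ratio was 1.87, and 2.22 relative to genes of like level. The other GIRK genes of the heart, which are outside the 36, did not show this: Kcnj3 went from 7.62 to 3.94 RPKM and Kcnj5 from 27.8 to 29.8 RPKM. In the mutant library Kcnj6 thus stood above Kcnj3, and in the control library below it. The median log2 ratio of the 5 inward rectifier and KATP members was 1.04, and 1.39 relative to genes of like level. All 5 lay above 0 on both scales, beside 4058 of 12342 genes without the level correction and 6185 with it. Kcnj8, 1 of the 5, reached 1 RPKM only in the mutant library, so its part in that count is no support for a difference.

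Markers of smooth muscle, whose cells also use Kir6.1 and SUR2, were higher as well, in 4 of 4 genes (summed 948 to 1537 RPKM). Acta2 and Tagln of that list are also made by embryonic heart muscle. Pdgfrb, a marker of pericytes and mesenchyme, went from 6.73 to 2.49 RPKM. The part of these cells in the KATP values was not tested.

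Two-pore channels carry the background potassium leak. Kcnk3 encodes TASK-1, an acid-sensitive leak channel of atrial muscle, and stood at 2.63 RPKM (control) and 2.97 RPKM (mutant), a ratio of 1.13 (1.04 to 1.23). Kcnk5, the gene of the related TASK-2, went from 1.74 to 0.988 RPKM, 1.76-fold lower (1.55 to 2.01). Kcnk1, the gene of the weakly conducting TWIK-1, went from 1.03 to 0.255 RPKM, 4.05-fold lower, with a wide interval (2.11 to 8.42, from at least 45 and 12 reads). Kcnk3 thus held 48.6% (control) and 70.5% (mutant) of the summed two-pore level, and that sum went from 5.41 to 4.21 RPKM. Kcnk5 and Kcnk1 are in the table only through the control library, in which each is high. The change in share and in the sum rests on them and is no support for a difference.

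Calcium-activated channels link potassium current to calcium. Kcnn1 and Kcnn2 encode the small-conductance channels SK1 and SK2. Kcnn1 went from 2.14 to 0.880 RPKM, 2.43-fold lower (2.05 to 2.88), and Kcnn2 from 1.29 to 0.666 RPKM, 1.94-fold lower (1.49 to 2.53, from at least 163 and 91 reads). Relative to genes of like level, Kcnn2 lay 0.33 above the median on the log2 scale, so its direction turns with that correction. Kcnmb1 encodes the beta subunit of the large-conductance BK channel, best known in smooth muscle, and went from 1.82 to 3.57 RPKM, 1.96-fold higher (1.80 to 2.14). It lies within Kcnip1 on the opposite strand, and the kit does not mark strand, so reads of both genes where they overlap cannot be separated.

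Accessory subunits showed the widest spread, with highest and lowest ratios of all 35 members. The highest, Kcnab3, reached 1 RPKM only in the mutant library, and the lowest, Kcnip4, only in the control library. Their being in the table thus rests on the library in which each is high, and the spread is no support for a difference. Kcne1 encodes minK, which joins Kv7.1 (Kcnq1) to form the slow delayed rectifier. It was at 0.797 RPKM (control) and 3.50 RPKM (mutant), 4.40-fold higher (3.51 to 5.56, from at least 93 and 442 reads). Kcnq1 was at 1.35 and 1.62 RPKM, and its interval of 0.944 to 1.53 includes a ratio of 1. By level per length, the subunit gene was below its pore gene in the control library and above it in the mutant library. Kcne1 too reached 1 RPKM only in the mutant library, so this change of order is no support for a difference.

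KChIP proteins bind Kv4 channels and set their surface level and gating. Kcnip2, the gene of the main KChIP of working heart muscle, carried the fill value in the control library and stood at 1.07 RPKM in the mutant library (at least 42 reads). No fold is given, since a fill value is not a measured level. Dpp6, another Kv4 partner, also carries the fill value in the control library, beside at least 428 reads in the mutant library. Whether either gene had no reads in the control library was not tested. Kcnip4 went the other way, from 3.49 to 0.323 RPKM, 10.8-fold lower (8.56 to 13.8, from at least 780 and 78 reads). Its log2 ratio of -3.43 was -2.98 relative to genes of like level. Kcnip1 was at 1.15 and 1.37 RPKM, with an interval of 0.990 to 1.44 that includes 1. The pore gene they serve, Kcnd2, which encodes Kv4.2, went from 1.04 to 0.727 RPKM, 1.43-fold lower (1.26 to 1.62), and its direction turned with the level correction.

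Kv-beta proteins attach to Kv1 channels, and their 2 genes in the table went opposite ways. Kcnab1 went from 2.43 to 1.21 RPKM, 2.02-fold lower (1.84 to 2.21). Kcnab3 went from 0.0517 to 1.32 RPKM, 25.5-fold higher with a wide interval (14.04 to 51.6, from at least 11 and 303 reads). Kv1 pore genes also differed from each other. Kcna4, whose Kv1.4 channel carries a slowly recovering transient outward current, went from 2.44 to 1.08 RPKM, 2.27-fold lower (2.06 to 2.51). Kcna5, whose Kv1.5 channel carries the ultrarapid delayed rectifier of atrial muscle, went from 1.20 to 1.71 RPKM, 1.42-fold higher (1.19 to 1.71).

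**Figure D3:**
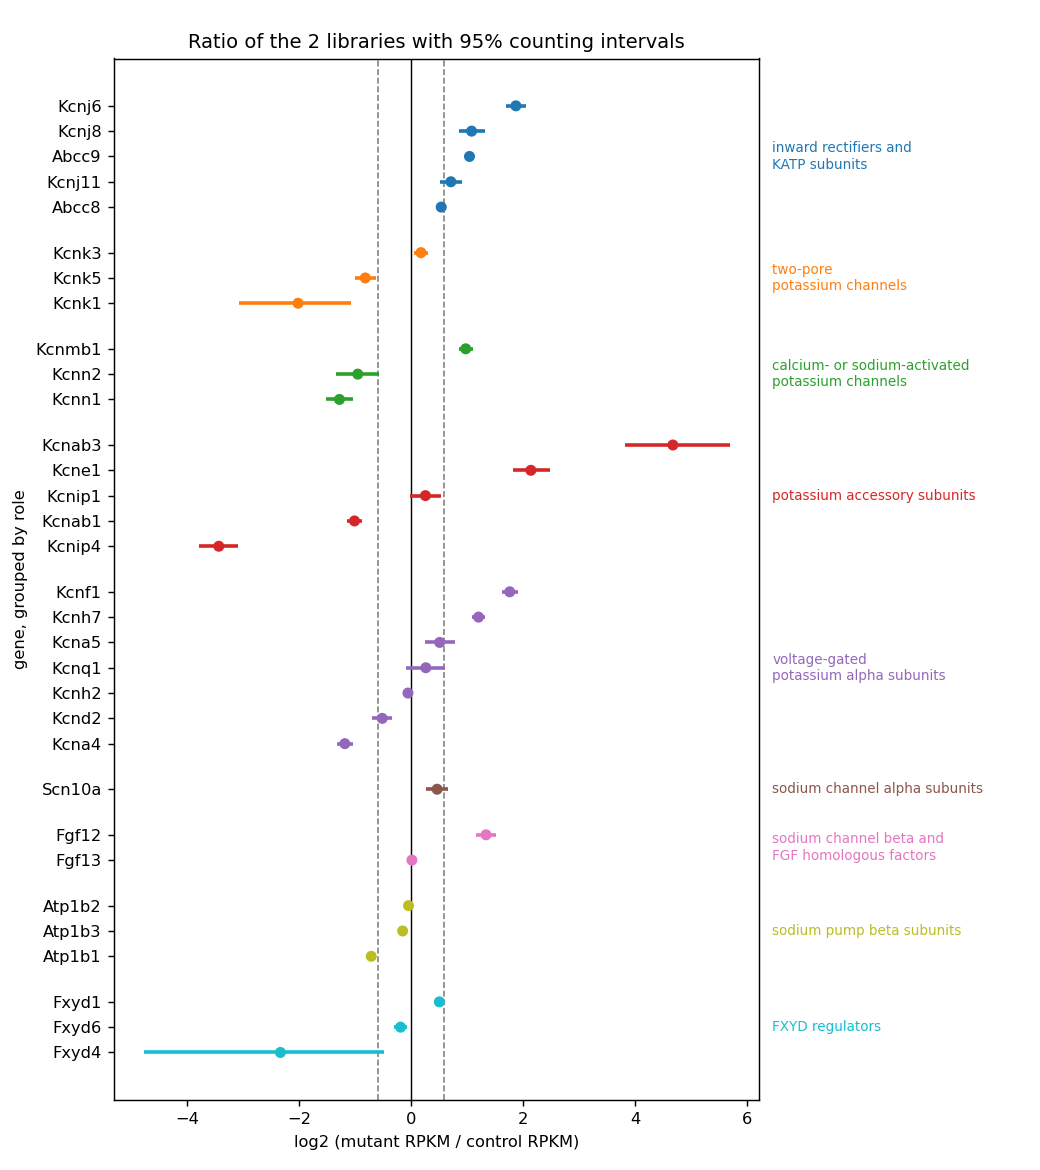
Log2 ratio of mutant to control RPKM for 32 genes with reads in both libraries, grouped by role, with exact 95% intervals for counting error as bars; the solid line stands at 0 and the dashed lines at a ratio of 1.5-fold. The inward rectifier and KATP genes shown, which leave out Kcnj3 and Kcnj5, all lie right of 0. The accessory genes run from Kcnab3 to Kcnip4, and the widest bar is that of Fxyd4.

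The other voltage-gated pore genes completed the potassium set. Kcnf1 encodes Kv5.1, a subunit that forms no channel alone and modifies other channels. It went from 0.913 to 3.09 RPKM, 3.39-fold higher (3.06 to 3.75, from at least 481 and 1760 reads), or 2.16 on the log2 scale relative to genes of like level. Kcnh7, which encodes the ERG-type channel Kv11.3, went from 0.561 to 1.29 RPKM, 2.30-fold higher (2.13 to 2.48). Its end overlaps that of Gca on the opposite strand, which was at 7.18 and 8.73 RPKM. The kit does not mark strand, so reads of Kcnh7 and Gca where they overlap cannot be separated. The part of Gca reads in the Kcnh7 values was not tested. Kcnh2, which encodes the ERG channel of the rapid delayed rectifier, had the highest level of all potassium channel members, 8.94 and 8.59 RPKM, and its ratio lay on either side of 1 depending on the scaling. Of the 7 pore genes, 4 were higher, 3 were lower, and those past 1.5-fold were Kcnf1 and Kcnh7 (higher) and Kcna4 (lower). Over 12342 genes, 7.16% were higher and 26.9% lower by at least 1.5-fold. Kcnf1 and Kcnh7 reached 1 RPKM only in the mutant library, and Kcnd2, 1 of the 3 lower, only in the control library. The counting of these genes is no support for a difference.

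Among genes of voltage-gated sodium channels and their partners, Scn10a, which encodes the pore of Nav1.8, went from 1.30 to 1.79 RPKM, 1.38-fold higher (1.21 to 1.57). Fgf12 and Fgf13 encode homologous factors that stay in the cell, bind the tail of sodium channels and shift their inactivation. Fgf12 went from 1.09 to 2.75 RPKM, 2.52-fold higher (2.24 to 2.85, from at least 372 and 1015 reads). Fgf13 was at 14.2 and 14.3 RPKM, a ratio of 1.009 (0.971 to 1.05), from at least 5079 and 5539 reads. Fgf13 was the higher of both in each library, by level per length.

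The pump's beta subunit carries the complex to the membrane, and its 3 genes in the table differed by unequal sizes. Atp1b1, the main cardiac beta gene, went from 35.5 to 21.6 RPKM, 1.64-fold lower (1.59 to 1.69, from at least 9781 and 6450 reads). Atp1b2 was at 23.8 and 22.98 RPKM, a ratio whose direction turned with the scaling, and Atp1b3 at 15.3 and 13.8 RPKM, 1.11-fold lower (1.06 to 1.17). Atp1b1 ranked first among the 3 in the control library, with 47.6% of their sum, and second after Atp1b2 in the mutant library, with 37.0%. The ends of Atp1b1 and Nme7 overlap on opposite strands, where reads of both cannot be separated, and Nme7 went from 21.9 to 18.1 RPKM.

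**Figure D4:**
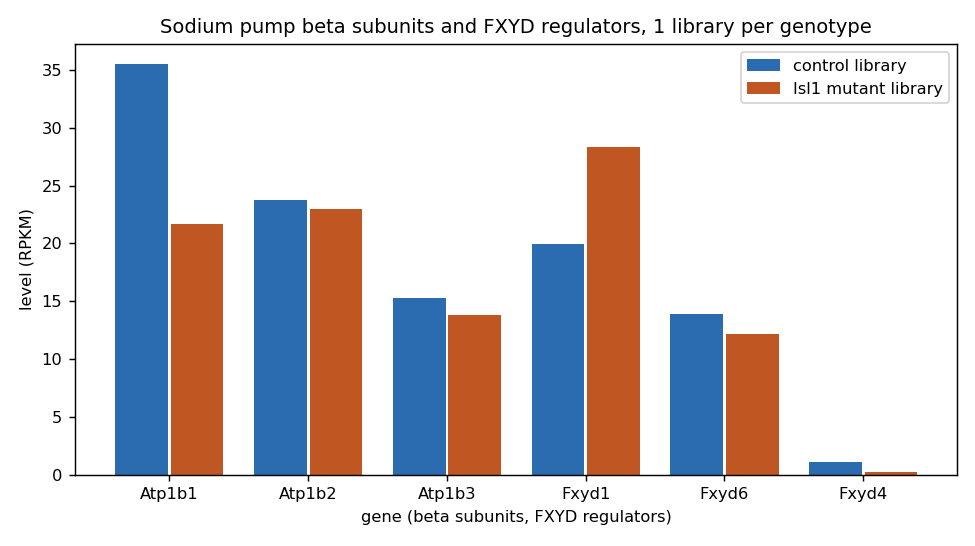
Level in RPKM of the sodium pump beta subunit genes and the FXYD regulators, as bars for the control library and the Isl1 mutant library (1 library each, no error bars). Atp1b1 is lower in the mutant library, Atp1b2 and Atp1b3 are nearly level, and Fxyd1 is higher.

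FXYD proteins are short membrane proteins that bind the pump and tune its affinity. Fxyd1, which encodes phospholemman, the pump inhibitor of heart muscle that phosphorylation relieves, went from 19.97 to 28.3 RPKM, 1.42-fold higher (1.34 to 1.503). Fxyd1 made up 57.1% (control) and 69.5% (mutant) of the summed FXYD level, which went from 34.99 to 40.7 RPKM. Fxyd6 was at 13.9 and 12.2 RPKM, 1.14-fold lower (1.06 to 1.23). Fxyd4 went from 1.12 to 0.221 RPKM on at least 14 and 3 reads, and its interval of 1.41-fold to 27.4-fold lower leaves the size undetermined at this depth.

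Relative to genes of like level, the log2 ratio of Atp1b1 was -0.64, beside -0.71 without that correction, and that of Fxyd1 was 0.57, beside 0.50. The erythroid, white cell, fibroblast and endothelial lists were lower in the mutant library, as given above, and pump subunits are made in those cells too. The epicardium list was nearly level, with 1 of 3 genes higher and 2 lower (summed 39.3 to 38.6 RPKM). The part of all these cells in the Atp1b1 value was not tested. The higher genes stood beside higher heart muscle markers, with 6 of 8 higher, from 1.05-fold for Myh6 to 5.13-fold for Nppa. The other 2 were lower, Ryr2 at 10.4 and 6.72 RPKM and Ttn at 21.5 and 18.01 RPKM. Actc1 had the highest level of the list, at 5374 and 8539 RPKM, followed by Tnnt2 at 2535 and 3109 RPKM. Neuron, glia and neural crest markers were higher in 3 of 5 and lower in 2 of 5 (summed 10.8 to 13.1 RPKM), with Nefl at 3.36 and 7.65 RPKM and Tubb3 at 2.89 and 0.610 RPKM.

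Genes that act with these channels were taken from a list of 30 trafficking partners, kinases and other ion transporters, of which 26 were in the table and 25 had reads in both libraries. Of these 25, 8 were higher and 17 lower, 1 and 5 of them by at least 1.5-fold, and the median log2 ratio was -0.28. Over the 12342 genes, 4058 were higher and 8284 lower, 7.16% and 26.9% by at least 1.5-fold, with a median of -0.22, so these counts lay near or under the background. Wnk4, a kinase gene of salt transport, was the 1 higher, from 0.556 to 1.22 RPKM. Trpm4, a sodium-permeable channel opened by calcium, was among the 5 lower, at 9.18 and 5.12 RPKM. Atp2b1, a plasma membrane calcium pump gene, went from 13.1 to 6.44 RPKM, 2.03-fold lower (1.96 to 2.10). Slc12a2, the sodium-potassium-chloride cotransporter gene, went from 1.495 to 0.466 RPKM, and Atp2b4 from 1.45 to 0.866 RPKM. The sodium-calcium exchanger gene Slc8a1, which uses the sodium gradient that the pump builds, was nearly level at 37.7 and 36.7 RPKM.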

How the data were processed

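RNA from sorted node cells was sequenced in 1 library per genotype. Per the submitters' processing notes, reads were handled with FastQC, Trim Galore, Bowtie2 and TopHat2 on the build mm9, without versions. The counting step is not stated there. The table's unit is not named in its header. The values by the authors were taken as RPKM, because for 96 small RNA genes value times length was a whole number of reads (tolerance 0.01) in 96 control and 93 mutant cases, the other 3 at a fill value. The deposited log2 fold change equals the log2 ratio of both columns to within 1.89e-07. The signed fold, deposited by the authors as a score, was left out.

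From these steps the smallest whole read numbers fitting both values were recovered for 99.1% of genes, so printed reads are minimums and true intervals can be narrower. A fill value stands in for 35 genes of the control and 71 of the mutant library. For a repeated symbol the entry with the highest mean was kept. Level adjustment subtracted the median log2 ratio of 10 bins of geometric mean level. The rule for named genes took members at 5 RPKM or more, those at least 2-fold different and a core list, and the other members are given by value. Results for 3 members, some of which this rule takes, and for some genes outside the set, are not reported here. Members, lists and rules were chosen with earlier results of these data known. Alternatives were other pseudocounts, floors and scalings. Python 3.11.15, pandas 2.3.3 and scipy 1.17.1 were used, and the scripts were tested on simulated data.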

Additional observations from a re-analysis of the deposited data

How the results depend on the processing

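By the 2-fold rule, the count of higher members, 1, went to 0 with a pseudocount of 5 or a floor of 10 RPKM and to 4 with no floor (Kcnab3, Kcne1, Kcnj6 and Kcnf1), and the count of lower members, 0, went to 1 with no floor (Kcnip4). With no floor, 36 members were counted, beside 1.12% of all genes higher and 3.93% lower. By the 1.5-fold rule, 10 higher and 11 lower of 35 members became 1 and 3 of 10 at a floor of 5 RPKM. Among all genes at that floor, 4.64% were higher and 14.6% lower. The higher count was 16 of 35 after subtraction of the level trend. The same subtraction moved the share of all genes that were higher from 7.16% to 13.7% and the lower share from 26.9% to 13.2%, beside 9 lower members. The 16 higher include Kcnd2, Kcnh7 and Kcnab3 of the lowest bin, whose median is shaped by the table's minimum. Without the subtraction Kcnd2 was 1.43-fold lower. The members' median log2 ratio of 0.013 turned to -0.105 at that floor (10 genes, beside -0.112 for all genes there), and was 0.136 with equal upper quartiles, 0.523 with the level trend removed and 0.174 at a mean of at least 1 RPKM. The upper quartiles differed by -0.124 on the log2 scale. Single ratios turned sign for Kcnh2 (0.015 with the median centred, 0.066 with equal upper quartiles, 0.104 with the level trend removed), Atp1b2 (0.025, 0.076 and 0.022), Kcnn2 (0.333) and Kcnd2 (0.769), the last 2 with the level trend removed. The other 28 ratios given one by one kept their sign under the 4 alternatives run. No paired analysis was possible because each genotype has 1 library. Depth limits Fxyd4, Kcnk1 and Kcnab3 most.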
